A study of Mus musculus with 8 samples.

Results

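The day-night programme of the liver was described here from all 8 libraries of the series, by setting the 4 livers taken at ZT18, in the middle of the night, against the 4 taken at ZT6, in the middle of the day. Zeitgeber time (ZT) counts the hours since the lights came on, and mice eat and move mostly at night. Each time held 2 mice given sudachitin, a polymethoxyflavone from citrus peel, and 2 control mice given the phosphate-buffered saline vehicle, and the treatment was kept as a term in the model so that it did not enter the comparison of the times. All 8 were male C57BL/6J mice fed a diet with 45% of its calories as fat, aged 30 weeks when the livers were taken. Gavage was every other day at ZT8 to ZT10, with 100 mg sudachitin per kg body weight in the treated mice. With 2 times per day, the data give a difference between those hours and not a phase or an amplitude.

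The circadian clock of the liver is a feedback loop of transcription. BMAL1 (the product of Arntl) and CLOCK bind E-box sequences and switch on the Per and Cry genes, whose proteins return to the nucleus and hold BMAL1 and CLOCK back, while a side loop of REV-ERB repressors (Nr1d1, Nr1d2) and ROR activators acts on Arntl through ROR elements. The loop drives output factors such as DBP, and, together with the daily rhythm of feeding, it sets the timing of lipid, sugar, bile acid and protein secretion genes in hepatocytes.

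The libraries held 13914116 to 17759630.5 counts in exons. Values are given as CPM, counts relative to the library total, scaled with TMM factors, and in sentences with a value for each liver the order within a time is sudachitin mouse 1 and 2, then control mouse 1 and 2. Control ZT18 mouse 1 stood apart from the others: it was the highest or the lowest library in 38.2% of genes, against 17.4% to 27.7% for the other 7, and the summed level of 7 tested female-biased liver genes was 645.5 CPM in it, against 77.6 to 166 CPM in the other libraries. Counts of list members called without it are given where they tell more than the total does. Both ZT6 mice of each treatment share the start of their sample code, so a cage or handling group, if that is what the codes mark, cannot be told apart from time. The 14 hepatocyte markers summed to 112400 to 129700 CPM at ZT18 and 112700 to 132900 CPM at ZT6, as a liver sample should show, and none of them differed between the times. Of the markers of Kupffer cells, lymphocytes, endothelium, stellate cells, bile duct cells and blood, none passed the test with all 8 libraries. In bulk tissue, fewer cells of a type and less RNA per cell cannot be told apart.

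Of 14506 tested transcripts, 534 (3.68%) differed between ZT18 and ZT6 with an adjusted p under 0.05 in edgeR's quasi-likelihood test. Of these, 270 (1.86% of those tested) were higher and 264 (1.82%) were lower at ZT18, and on an FPKM scale with limma the split was 141 higher against 267 lower. The median size of the difference was 0.65 on the log2 scale, and 129 differed by more than 2-fold, of which 89 were higher and 40 were lower at ZT18. In 259 of the higher and 259 of the lower transcripts the 4 ZT18 livers did not overlap with the 4 ZT6 livers, where over all tested transcripts 5.99% had all ZT18 livers above and 7.02% all below. The calls thinned out when any library was left out, with 1 exception. Without control ZT18 mouse 1 there were 1061 calls, while without each of the other libraries there were 168 to 406. A set of 126 transcripts passed with all 8 libraries and in all 8 fits that left out 1 library, 64 higher at ZT18 (0.441% of those tested) and 62 lower (0.427%), while 334 passed in at most 3 of those fits. A call that passed in all 8 of these fits is described below as holding with any 1 library left out.

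**Figure D1:**
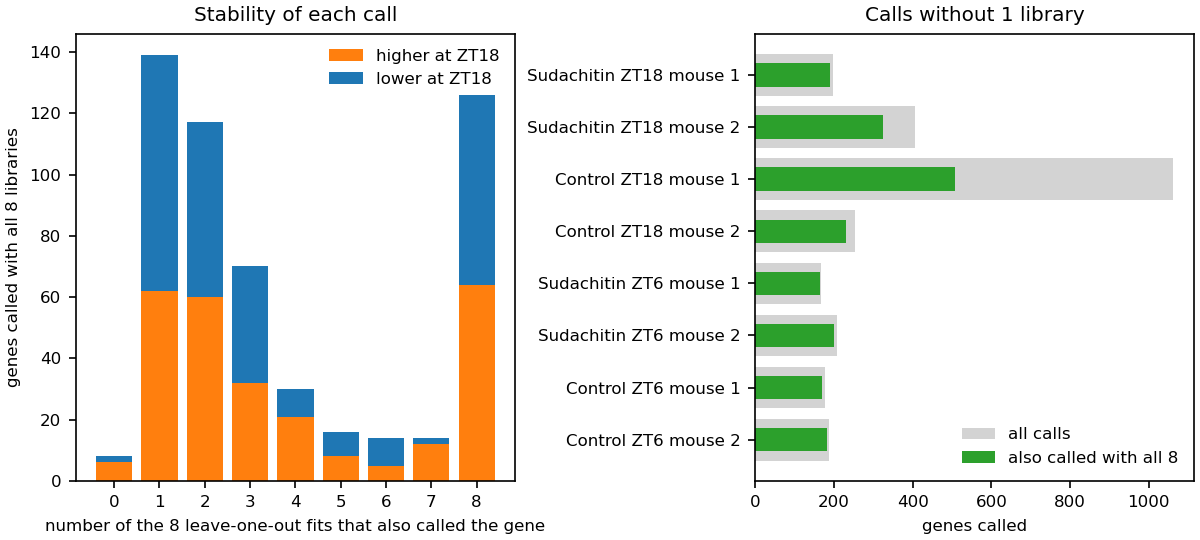
Left, the 534 transcripts called with all 8 libraries, by the number of leave-one-out fits (x axis) that also called them, with orange for higher and blue for lower at ZT18. Right, the number called when the library named on the y axis was left out (gray) and how many of those were also called with all 8 (green). The left plot has its tallest bar at 1, with 62 higher and 77 lower transcripts, and another peak at 8, with 126 transcripts. The right plot shows 1061 calls without control ZT18 mouse 1.

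The repressor arm of the clock gave the clearest difference between the times. Nr1d1, which encodes REV-ERB alpha, had 4.86, 7.52, 4.91 and 5.13 CPM in the 4 ZT18 livers, against 113, 91.3, 119.9 and 102 CPM in the 4 ZT6 livers. All 4 night values lay far below the day values, a 19-fold higher level at ZT6 (log2 difference -4.25, SE 0.17, edgeR adjusted p = 8.99e-06). Nr1d2, which encodes REV-ERB beta, fell less, with 33.8, 32.9, 22.99 and 26.3 CPM at ZT18, against 62.4, 70.6, 70.7 and 64.6 CPM at ZT6 (log2 difference -1.22, SE 0.11, edgeR adjusted p = 0.00172). Cry1 and Per2, repressors of BMAL1 and CLOCK, went the other way. Cry1 had 40.9, 38.99, 45.1 and 46.3 CPM in the 4 ZT18 livers, against 12.5, 15.2, 9.64 and 11.6 CPM in the 4 ZT6 livers (log2 difference 1.81, SE 0.13, edgeR adjusted p = 0.000658). Its night livers lay within a narrow band, well above all day livers. Per2 had 42.5, 58.8, 36.3 and 73.98 CPM at ZT18, against 19.7, 10.03, 15.2 and 22.9 CPM at ZT6 (log2 difference 1.65, SE 0.27, edgeR adjusted p = 0.0158), and its night values spread more than those of Cry1. Nr1d1, Nr1d2 and Cry1 held with any 1 library left out, and Per2 in 7 of the 8 fits, with an adjusted p of 0.0637 in edgeR without control ZT6 mouse 1. The other 4 repressors tested did not pass: Per1 had a log2 difference of 0.65 (SE 0.23), Per3 of 0.99 (SE 0.30), Ciart of 0.47 (SE 0.42) and Cry2 of -0.03 (SE 0.12), and their livers overlapped between the times.

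In the activator arm, Arntl rose, with 15.4, 21.3, 19.3 and 17.99 CPM in the 4 ZT18 livers, against 13.1, 12.96, 11.01 and 13.7 CPM in the 4 ZT6 livers (log2 difference 0.54, SE 0.12, edgeR adjusted p = 0.0446), and it kept its call in 2 of the 8 leave-one-out fits, with an adjusted p up to 0.127 in edgeR. Clock, with 48.3 ± 5.91 CPM at ZT18 and 47.5 ± 3.12 CPM at ZT6 (SD, n = 4 livers at each time, here and below), had a log2 difference of 0.02 (SE 0.10). Npas2, a relative of Clock, and Rora did not pass, with log2 differences of -0.55 (SE 0.56) and -0.28 (SE 0.21). The pooled value of Npas2 joins -2.04 in sudachitin and 0.66 in control livers. That split between the treatments, -2.69 (SE 0.74), did not pass the interaction test either. Of 6 kinases and ubiquitin ligase subunits that act on clock proteins, Fbxl21 alone passed, an F-box protein that binds cryptochromes. It had 2.55, 2.88, 2.399 and 3.65 CPM at ZT18, against 6.45, 6.27, 4.46 and 6.54 CPM at ZT6 (log2 difference -1.05, SE 0.20, edgeR adjusted p = 0.0239) and passed in 3 of the 8 fits. On GRCm38 the transcripts counted here lie at chromosome 1, 91415982 to 91459324 for Per2 and chromosome 7, 113207465 to 113314126 for Arntl.

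Cry1 and Nfil3 are shown with the 250 bases before their RefSeq start sites (GRCm38.p6), as an example each of an E-box and a ROR element close to the start among the called clock genes and output factors, a choice made after the matches were seen. Lonrf3, a called output gene, holds an E-box nearer to its start, 45 to 40 bases before it. The capitals mark the E-box CACGTG in Cry1, 60 to 55 bases before the start, and the ROR element TAGGTCA in Nfil3, which reads TGACCTA on the gene's strand, 12 to 6 bases before it.
Cry1 (chr10:85185055-85185304, minus strand): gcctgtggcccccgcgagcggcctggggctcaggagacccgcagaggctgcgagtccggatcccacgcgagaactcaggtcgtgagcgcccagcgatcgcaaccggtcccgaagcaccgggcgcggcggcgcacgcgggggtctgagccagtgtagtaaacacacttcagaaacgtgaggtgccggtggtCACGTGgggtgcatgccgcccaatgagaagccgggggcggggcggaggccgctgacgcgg
Nfil3 (chr13:52981040-52981289, minus strand): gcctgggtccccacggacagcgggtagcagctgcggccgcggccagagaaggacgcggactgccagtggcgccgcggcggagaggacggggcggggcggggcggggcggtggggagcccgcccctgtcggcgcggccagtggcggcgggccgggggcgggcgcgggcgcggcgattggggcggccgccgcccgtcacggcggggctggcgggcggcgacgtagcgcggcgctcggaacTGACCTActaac
The same letters were searched in all tested genes. Over windows of 300 bases, from 250 before to 50 after the start, CACGTG stood on either strand in 10.2% of the 9956 tested genes with a window, in 10.1% of the 189 higher and in 10.4% of the 193 lower at ZT18. The ROR element was in 2.06% of all, 2.65% of the higher and 2.59% of the lower genes. The D-box TTATGNAA, searched on both strands, was in 2.21% of all, 5.82% of the higher (11 genes) and 1.55% of the lower genes (3 genes).

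The factors that pass the clock's signal on were divided in direction. The share of them called was 55.6%, against 3.68% of all tested transcripts. Of 9 tested, 2 rose and 3 fell at ZT18, and with 1 library left out 4 rose and 3 fell without control ZT18 mouse 1, while 0 or 1 rose and 1 to 3 fell in the other 7 fits. Dbp, an activator at D-boxes, had 12.9, 12.4, 8.15 and 11.9 CPM in the 4 ZT18 livers, against 52.8, 40.3, 66.1 and 40 CPM in the 4 ZT6 livers (log2 difference -2.14, SE 0.20, edgeR adjusted p = 0.00174), and it held with any 1 library left out. All 4 night livers were below all day livers, but Dbp shares 539 bases with Sphk2 on the opposite strand, so reads of the pair cannot be told apart. Nfil3, a repressor at the same D-boxes, rose, with 43.9, 50.4, 34.98 and 38.6 CPM at ZT18, against 24.8, 27.1, 17.99 and 29.7 CPM at ZT6 (log2 difference 0.74, SE 0.15, edgeR adjusted p = 0.0302). Bhlhe40 and Bhlhe41, which encode the E-box repressors DEC1 and DEC2, moved in opposite directions. Bhlhe40 had 98.97, 138, 111 and 182 CPM at ZT18, against 66.3, 64.2, 97.9 and 61.5 CPM at ZT6 (log2 difference 0.87, SE 0.19, edgeR adjusted p = 0.0429), and Bhlhe41, at much lower counts, had 0.474, 1.23, 0.335 and 0.492 CPM at ZT18, against 3.196, 1.5003, 3.89 and 1.96 CPM at ZT6 (log2 difference -2.06, SE 0.46, edgeR adjusted p = 0.0429). Klf9, a zinc-finger factor that also answers to glucocorticoids, fell, with 96.5, 95.9, 61.9 and 56.8 CPM at ZT18, against 121, 153, 161 and 123 CPM at ZT6 (log2 difference -0.88, SE 0.17, edgeR adjusted p = 0.025). Nfil3, Bhlhe40, Bhlhe41 and Klf9 each passed in at most 3 of the 8 leave-one-out fits. Tef and Hlf, relatives of Dbp, did not pass, with log2 differences of 0.37 (SE 0.09) and 0.20 (SE 0.11), nor did Klf10 (0.14, SE 0.17). The list of 9 also holds Rev1, which encodes a DNA polymerase and is no clock factor. Rev1 did not pass (0.44, SE 0.19), and it shares 1240 bases with Eif5b on the opposite strand.

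Of 18 other genes listed as outputs of the liver clock, 10 were higher and none was lower at ZT18, with 15 above 0. Among all tested transcripts 1.86% were called higher and 52.7% were above 0. The median log2 difference of the 18 was 1.06, against 0.02 over all tested transcripts. Like all lists here, this one was chosen with earlier results of these data known, so its lean is a description and no test. With 1 library left out at a time, 8 to 11 of the 18 passed. Wee1, a kinase that delays entry into mitosis, had 14.99, 12.6, 15.2 and 14.5 CPM in the 4 ZT18 livers, against 4.86, 5.46, 4.53 and 4.44 CPM in the 4 ZT6 livers (log2 difference 1.57, SE 0.12, edgeR adjusted p = 0.000658). Usp2, a ubiquitin protease, had 6.697, 6.93, 5.19 and 5.13 CPM at ZT18, against 1.66, 0.546, 0.7196 and 1.05 CPM at ZT6 (log2 difference 2.57, SE 0.27, edgeR adjusted p = 0.00241). It shares 143 bases with the predicted gene Gm49380 on the opposite strand, which had 303 counts per 100 of Usp2. Reads of that pair in the shared bases cannot be told apart. Nmrk1 and Nampt, enzymes that make NAD from nicotinamide riboside and from nicotinamide, rose together. Nmrk1 had 32.6, 35.7, 25.1 and 35.8 CPM at ZT18, against 8.73, 8.12, 12.02 and 10.9 CPM at ZT6 (log2 difference 1.71, SE 0.16, edgeR adjusted p = 0.00172), and Nampt had 79.4, 60.2, 83.97 and 69.8 CPM at ZT18, against 29.1, 44.5, 34.7 and 33.1 CPM at ZT6 (log2 difference 1.05, SE 0.15, edgeR adjusted p = 0.00879). They were the 2 called members of 18 tested NAD genes (11.1%, against 3.68% of all tested transcripts). Of the 18, 2 rose and none fell in 7 of the leave-one-out fits, and 3 rose and 2 fell without control ZT18 mouse 1. Tspan4, a tetraspanin of the cell membrane, had 71.6, 66.3, 47.5 and 61.1 CPM at ZT18, against 28.9, 25.7, 23.2 and 29.2 CPM at ZT6 (log2 difference 1.19, SE 0.12, edgeR adjusted p = 0.00206), and it shares 291 bases with Chid1 on the opposite strand. Por, the reductase that feeds electrons to cytochrome P450 enzymes, had 70.4, 60.1, 68.7 and 48.4 CPM at ZT18, against 27.97, 25.6, 33.97 and 33.4 CPM at ZT6 (log2 difference 1.04, SE 0.14, edgeR adjusted p = 0.00726). Noct, which encodes Nocturnin (1.796, SE 0.39), Lonrf3 (1.75, SE 0.24), the solute carrier Slc45a3 (0.56, SE 0.12) and the liver glycogen synthase Gys2 (0.63, SE 0.10) were the other called members.

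**Figure D2:**
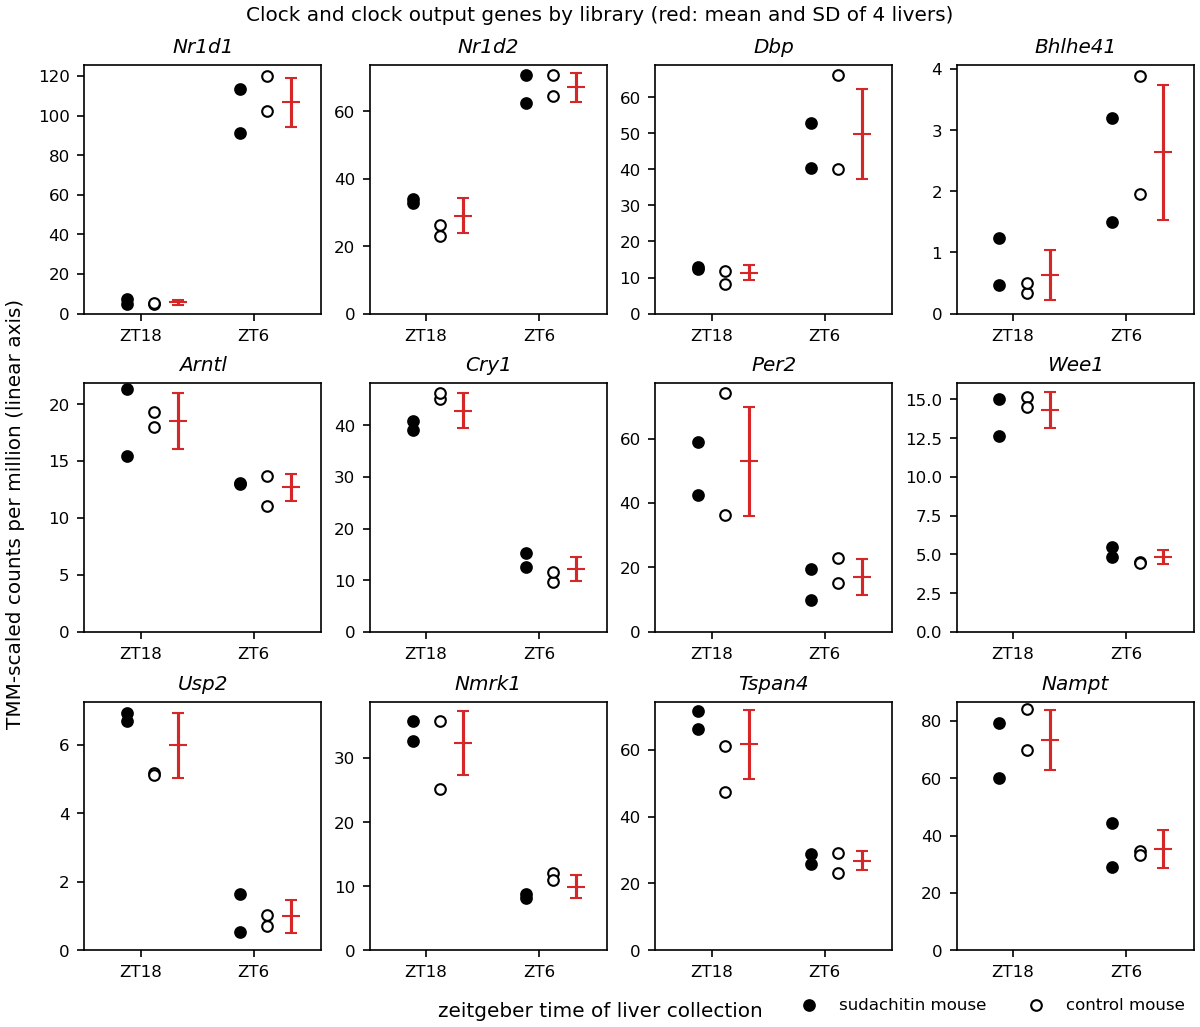
Levels of 12 clock and clock output genes in each library, in TMM-scaled CPM on a linear axis that starts at 0, with ZT18 left and ZT6 right in each panel. Filled points are sudachitin mice, open points are control mice, and red marks are the mean and SD of 4 livers. The top row shows the 4 genes that were lower at ZT18, Nr1d1 by the widest margin, and the lower rows show 8 genes that were higher, with no overlap of the times in any panel.

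Among the lists outside the clock, the protein folding machinery of the endoplasmic reticulum (ER) had the most called members, all below their day level. Secreted proteins such as albumin enter the ER, where chaperones and disulfide enzymes fold them, and the unfolded protein response raises these genes when folding capacity is short. Of 21 tested ER chaperones and disulfide enzymes, 10 were lower and none was higher at ZT18, with a median log2 difference of -0.67. In 15 all 4 ZT18 livers were below the 4 ZT6 livers. Over all tested transcripts 1.82% were called lower and 7.02% had all ZT18 livers below. Hsp90b1, the ER form of HSP90, had 542, 587, 473 and 417 CPM in the 4 ZT18 livers, against 809, 856, 867 and 1018 CPM in the 4 ZT6 livers (log2 difference -0.82, SE 0.12, edgeR adjusted p = 0.0108). Pdia6, a disulfide isomerase, had 173, 216, 158 and 137 CPM at ZT18, against 303, 294, 279 and 366 CPM at ZT6 (log2 difference -0.87, SE 0.14, edgeR adjusted p = 0.0136). Both held with any 1 library left out, and their night livers all lay below their day livers. Sdf2l1, a cofactor of the chaperone BiP, had the widest difference of the list, with 12.7, 18.8, 8.76 and 5.13 CPM at ZT18, against 35.6, 33.1, 23.9 and 62.3 CPM at ZT6 (log2 difference -1.84, SE 0.38, edgeR adjusted p = 0.0357). Calr, a calcium-binding lectin chaperone, had 537 ± 88.1 CPM at ZT18 and 902 ± 98.4 CPM at ZT6 (log2 difference -0.75, SE 0.13, edgeR adjusted p = 0.0189). Canx, Pdia3, Pdia4, Dnajc3, Ppib and Ero1lb also fell, by 0.47 to 0.76 on the log2 scale, and Ppib shares 514 bases with Snx22 on the opposite strand. Hspa5, which encodes BiP itself, had 598, 723, 531 and 417 CPM at ZT18, against 792, 899, 901 and 1302 CPM at ZT6, with no overlap but short of the threshold (log2 difference -0.79, SE 0.20, edgeR adjusted p = 0.0666). Hyou1 (-0.97, SE 0.26), Manf (-0.95, SE 0.27) and Creld2 (-0.91, SE 0.31) did not pass either.

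The number of these calls rested on single livers. Without sudachitin ZT18 mouse 2, the night liver with the highest levels, 11 of the 21 passed, without control ZT18 mouse 1 8 passed, and without each of the other 6 libraries 2 or 3 passed. The median over the list was -0.77 to -0.48 across the 8 fits. It was -0.35 in sudachitin livers and -0.999 in control livers, but no member had a treatment difference that passed the interaction test: for Hspa5 the difference in sudachitin minus that in control livers was 0.86, SE 0.29, and for Sdf2l1 it was 1.49, SE 0.60.

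**Figure D3:**
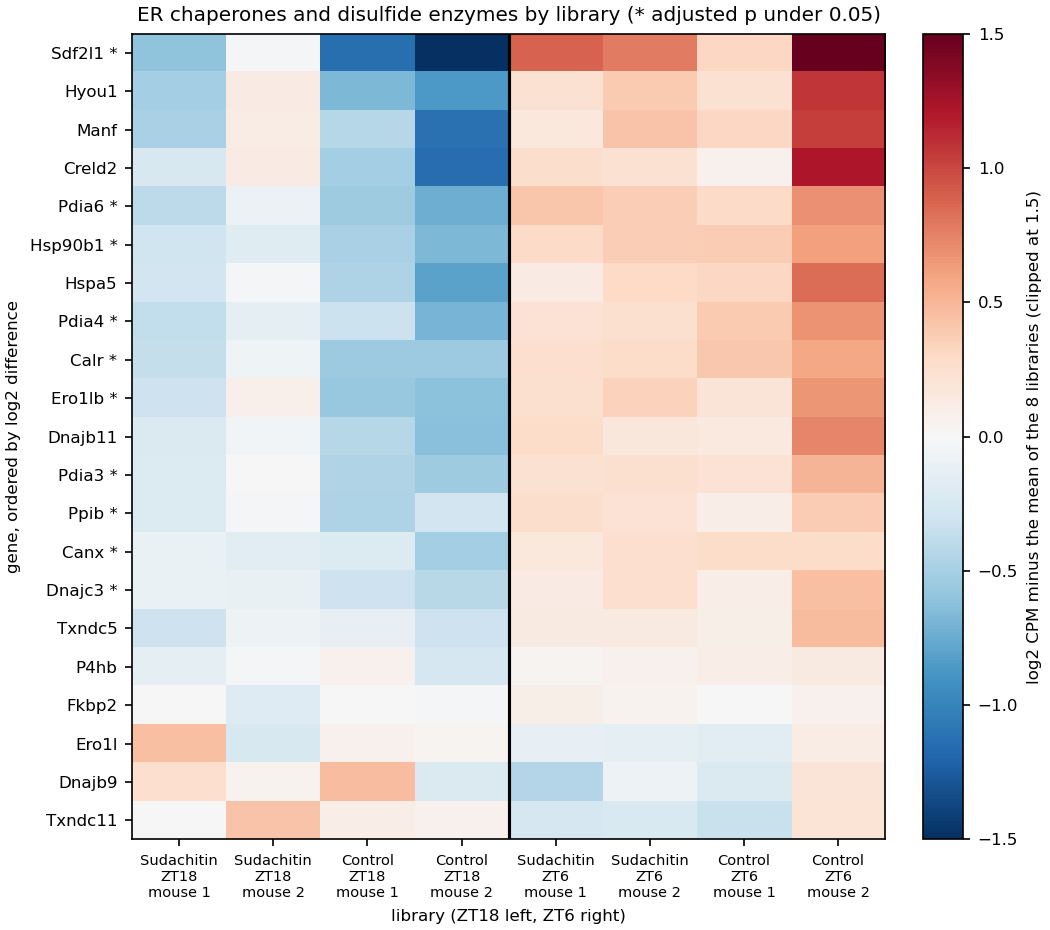
Levels of the 21 tested ER chaperones and disulfide enzymes (rows, ordered by log2 difference) in the 8 libraries (columns, ZT18 left of the black line and ZT6 right), as log2 CPM minus the mean of the 8 libraries, clipped at 1.5. Asterisks mark the 10 members with an adjusted p under 0.05. Blue fills most of the left side and red the right, with the palest ZT18 column in sudachitin mouse 2 and the darkest ZT6 column in control mouse 2.

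Stretches of 5 promoters are printed because the sequence that the unfolded protein response reads, the ER stress element, was frequent among these genes. They were chosen after the values were seen. The element was searched as CCAAT and CCACG with 9 bases between them, on both strands of the 300-base windows. It was found in 16 of 9956 tested genes (0.161%), in 0 of 189 genes higher at ZT18, and in 5 of 193 genes lower at ZT18 (2.59%). All of those 5 are chaperones. Of 17 chaperones with a window it was in 7 (41.2%): Calr, Canx, Dnajc3, Hsp90b1 and Pdia6, which passed, and Creld2 and Hspa5, which did not. CCAAT on its own was in 38.8% of all genes. The capitals below mark the whole element, with 20 bases on each side, on the gene's strand of GRCm38.p6 as given by RefSeq, and Hsp90b1 holds it at 2 places. In Calr and in the second place of Hsp90b1 it reads in reverse, from CGTGG to ATTGG.
Calr (chr8:84847055-84847113, minus strand, letters 162 to 144 bases before the start): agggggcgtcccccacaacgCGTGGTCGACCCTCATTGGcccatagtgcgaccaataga
Canx (chr11:50325780-50325838, minus strand, letters 145 to 127 bases before the start): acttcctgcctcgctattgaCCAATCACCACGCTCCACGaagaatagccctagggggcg
Dnajc3 (chr14:118937807-118937865, plus strand, letters 105 to 87 bases before the start): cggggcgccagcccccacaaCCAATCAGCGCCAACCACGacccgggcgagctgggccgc
Hsp90b1 (chr10:86705618-86705676, minus strand, letters 212 to 194 bases before the start): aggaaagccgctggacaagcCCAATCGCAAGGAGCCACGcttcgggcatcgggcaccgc
Hsp90b1 (chr10:86705513-86705571, minus strand, letters 107 to 89 bases before the start): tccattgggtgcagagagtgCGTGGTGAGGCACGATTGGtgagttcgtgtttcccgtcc
Pdia6 (chr12:17266471-17266529, plus strand, letters 98 to 80 bases before the start): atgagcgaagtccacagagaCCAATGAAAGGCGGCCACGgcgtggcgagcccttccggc

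Fewer members passed among the steps before and after folding. The share called was 13.8% for translocation and N-glycosylation and 12.5% for degradation and quality control. It was 11.8% for regulators of the stress responses, against 3.68% of all tested transcripts. Of 29 tested genes of translocation into the ER and N-glycosylation 4 fell and none rose (median log2 difference -0.20). Spcs3, a subunit of signal peptidase, had 51.9, 53.7, 46.9 and 49.95 CPM at ZT18, against 70.6, 77.1, 72.5 and 78.2 CPM at ZT6 (log2 difference -0.56, SE 0.08, edgeR adjusted p = 0.00865) and held with any 1 library left out. Stt3a, a catalytic subunit of the oligosaccharyltransferase (-0.48, SE 0.10), Sec61a1, the channel of the translocon (-0.57, SE 0.13), and Srpr, a subunit of the signal recognition particle receptor (-0.43, SE 0.10), passed in 1 to 3 leave-one-out fits. Of 16 genes of ER-associated degradation and glycoprotein quality control, 2 fell: Selenos (-0.53, SE 0.12) and Uggt1, which marks unfolded glycoproteins for another round of folding (-0.49, SE 0.11), each passing in 1 of the 8 leave-one-out fits. None of 28 genes of ER to Golgi transport passed (median -0.13). Among 17 regulators of the unfolded protein and integrated stress responses 2 fell. Trib3, a pseudokinase, had 2.61, 2.29, 3.12 and 1.97 CPM at ZT18, against 8.11, 6.55, 7.41 and 8.82 CPM at ZT6 (log2 difference -1.62, SE 0.18, edgeR adjusted p = 0.00265), and Atf5, a stress-response transcription factor, had 364 ± 54.9 CPM at ZT18 and 589 ± 43.1 CPM at ZT6 (log2 difference -0.70, SE 0.12, edgeR adjusted p = 0.0153). Xbp1, which encodes the splicing-activated factor of the response (-0.37, SE 0.18), Atf4 (0.14, SE 0.12) and Ddit3 (-0.01, SE 0.18) did not pass.

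Every heat shock protein or co-chaperone that passed was higher at ZT18. The 22 tested were mostly cytosolic but held the mitochondrial chaperonins Hspd1 (0.08, SE 0.09) and Hspe1 (0.33, SE 0.09), which did not pass. Of the 22, 5 rose and none fell (22.7% called, against 3.68% of all tested transcripts). A log2 difference above 0 was found in 21, against 52.7% of all tested transcripts, and the median was 0.33. Hspa1b, an inducible HSP70, had 34.1, 12.3, 18.8 and 21.9 CPM in the 4 ZT18 livers, against 3.81, 2.86, 4.102 and 5.82 CPM in the 4 ZT6 livers (log2 difference 2.398, SE 0.33, edgeR adjusted p = 0.00715), a 5.27-fold higher level at night, with sudachitin mouse 1 the highest liver. Its near-identical neighbour Hspa1a had far fewer counts and did not pass (1.88, SE 0.54), and reads of the pair may have been split between them. Bag3, a co-chaperone of HSP70, had 36.6, 36.9, 48.3 and 42.1 CPM at ZT18, against 22.2, 19.6, 25.8 and 30.3 CPM at ZT6 (log2 difference 0.75, SE 0.09, edgeR adjusted p = 0.00445). Hspa1b and Bag3 held with any 1 library left out. Hspa8, the constitutive HSP70 (0.68, SE 0.14), Dnajb1, an HSP40 (0.69, SE 0.14), and Hspa4l (0.32, SE 0.07) rose as well, and 2 to 5 members passed when 1 library was left out. Cirbp, an RNA-binding protein that mammalian cells make more of in the cold, fell, with 9.24, 13.4, 8.09 and 11.8 CPM at ZT18, against 18.99, 18.8, 16.8 and 14.97 CPM at ZT6 (log2 difference -0.71, SE 0.15, edgeR adjusted p = 0.0359), while the other cold-inducible gene tested, Rbm3, did not pass (0.39, SE 0.13). The promoter of Hspa1b is shown because it holds the letters searched as a heat shock element, the kind of sequence that heat shock factor binds. Binding was not measured. Capitals mark GAANNTTC, 104 to 97 bases before the start.
Hspa1b (chr17:34959239-34959488, minus strand): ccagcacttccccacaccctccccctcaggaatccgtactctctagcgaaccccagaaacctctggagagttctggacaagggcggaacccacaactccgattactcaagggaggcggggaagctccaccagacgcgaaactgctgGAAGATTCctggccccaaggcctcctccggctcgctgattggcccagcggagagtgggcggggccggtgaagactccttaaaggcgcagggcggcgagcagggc
GAANNTTC reads the same on both strands, and it was in 5.75% of all tested genes with a window, in 10.6% of those higher at ZT18, in 5.18% of those lower, and in 9 of the 17 heat shock genes with a window (52.9%).

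In lipid metabolism, every gene that passed in the lists of synthesis, storage and oxidation was higher at night. Of 20 tested genes of fatty acid synthesis 2 rose and none fell (10% called, against 3.68% of all tested transcripts), with a median log2 difference of 0.53. Thrsp, the lipogenic nuclear protein SPOT14, had 762, 1532, 1292 and 1872 CPM in the 4 ZT18 livers, against 427, 219.8, 514 and 465 CPM in the 4 ZT6 livers (log2 difference 1.76, SE 0.26, edgeR adjusted p = 0.01). Elovl6, which lengthens palmitate, had 279, 465, 522 and 843 CPM at ZT18, against 169.7, 127, 199 and 162 CPM at ZT6 (log2 difference 1.62, SE 0.23, edgeR adjusted p = 0.00819). Both held with any 1 library left out. Their night livers spread widely but stayed above every day liver. Fasn, the fatty acid synthase (0.66, SE 0.33), Acaca (0.62, SE 0.16) and Acly (0.69, SE 0.25) did not pass, and Srebf1, the insulin-responsive regulator of the pathway, had 401 ± 170.2 CPM at ZT18 and 412 ± 128 CPM at ZT6 (-0.13, SE 0.29). Without control ZT18 mouse 1, 5 members of the list passed, and in the other 7 leave-one-out fits 2 or 3 did.

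G0s2, an inhibitor of the lipase that empties lipid droplets, had 229.5, 276, 283 and 327 CPM in the 4 ZT18 livers, against 89.6, 111, 155 and 136 CPM in the 4 ZT6 livers (log2 difference 1.199, SE 0.12, edgeR adjusted p = 0.00185), and it held with any 1 library left out. Plin5, a coat protein of lipid droplets, rose by less (log2 difference 0.57, SE 0.12, edgeR adjusted p = 0.0349). They were the 2 called members of 20 tested lipid droplet genes (10%, against 3.68% of all tested transcripts). Of the 20, 1 to 5 passed when 1 library was left out. Cidec, which enlarges lipid droplets, had a log2 difference of 3.12 but did not pass (SE 0.77), with 21.1, 4.23, 88.7 and 9.204 CPM at ZT18, against 1.35, 1.84, 8.06 and 2.68 CPM at ZT6. Of 36 genes of fatty acid oxidation and ketogenesis 4 rose and none fell (11.1% called, against 3.68% of all tested transcripts). Of the 36, 32 were above 0 (median 0.17), against 52.7% of all tested transcripts. Acot1, a cytosolic acyl-CoA thioesterase with close copies in the genome, had 65.8, 49.4, 86.2 and 41.8 CPM at ZT18, against 20.2, 24.6, 22.3 and 25.8 CPM at ZT6 (log2 difference 1.39, SE 0.21, edgeR adjusted p = 0.0103) and held with any 1 library left out. Pdk4, the kinase that closes pyruvate dehydrogenase, had 21.3, 26.6, 53.2 and 25.7 CPM at ZT18, against 10.6, 13.2, 14.2 and 14.8 CPM at ZT6 (log2 difference 1.23, SE 0.22, edgeR adjusted p = 0.019), with control mouse 1 the highest night liver. Slc25a20, the carnitine-acylcarnitine carrier of mitochondria (0.50, SE 0.11), rose and kept its call in 3 leave-one-out fits. Cpt1a (0.28, SE 0.17) and Ppara (0.04, SE 0.18) did not pass. No member passed among 15 genes of triglyceride synthesis (median 0.24) or among 24 of cholesterol synthesis and uptake (median -0.22, with 2 above 0), although 4 of the cholesterol genes were lower at ZT18 without sudachitin ZT18 mouse 2.

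Several enzymes of glucose use were higher at night. Of 26 tested glycolysis and glycogen genes, 6 rose and none fell (median 0.21), so 23.1% were called, against 3.68% of all tested transcripts. With 1 library left out, 6 passed without control ZT18 mouse 1 or sudachitin ZT18 mouse 2, and 2 or 3 in the other 6 fits. Gpi1, which converts glucose 6-phosphate to fructose 6-phosphate, had 295, 298, 319.8 and 429.6 CPM at ZT18, against 173, 174, 233 and 172 CPM at ZT6 (log2 difference 0.83, SE 0.12, edgeR adjusted p = 0.01). Gys2, named above among the clock outputs, had 175, 218, 223 and 228 CPM at ZT18, against 129, 133, 152 and 129.9 CPM at ZT6 (log2 difference 0.63, SE 0.10, edgeR adjusted p = 0.0105). Gapdh (0.44, SE 0.09), Eno1 (0.52, SE 0.10) and Pfkfb1, the liver form of the enzyme that makes and removes fructose 2,6-bisphosphate (0.63, SE 0.14), also rose, the livers of Eno1 overlapping between the times. Gpi1 and Gys2 held with any 1 library left out, while Gapdh, Eno1 and Pfkfb1 passed in 1 or 2 of the 8 fits. Among 15 genes of gluconeogenesis 2 rose (13.3% called), and with 1 library left out 0 to 2 did, 0 without sudachitin ZT6 mouse 1. G6pc, which releases free glucose from glucose 6-phosphate, had 502, 294, 290.0 and 520.4 CPM at ZT18, against 161, 136, 257 and 209 CPM at ZT6 (log2 difference 1.11, SE 0.24, edgeR adjusted p = 0.0374), and Sik1, a kinase that restrains CREB coactivators, had 24.5, 16.9, 15.3 and 18.97 CPM at ZT18, against 8.17, 8.66, 10.7 and 8.04 CPM at ZT6 (log2 difference 1.08, SE 0.17, edgeR adjusted p = 0.011). Sik1 passed in 7 of the 8 leave-one-out fits and G6pc in 2, with an edgeR adjusted p up to 0.122. Pck1, the other enzyme by which gluconeogenesis is known, had a log2 difference of 0.57 (SE 0.28), with the highest value, 2429 CPM, in sudachitin ZT18 mouse 1.

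Of the bile acid genes that passed, Cyp7a1 alone was higher at night. Cyp7a1, the rate-limiting enzyme of bile acid synthesis, had 142, 120.4, 49.6 and 106 CPM in the 4 ZT18 livers, against 32.8, 21.7, 33.2 and 13.99 CPM in the 4 ZT6 livers (log2 difference 1.996, SE 0.32, edgeR adjusted p = 0.0124). Every night liver was above every day liver, a 3.99-fold rise, and it passed in 7 of the 8 leave-one-out fits, with an edgeR adjusted p of 0.0528 without sudachitin ZT6 mouse 1. Hsd3b7, a later enzyme of the same route, fell, with 292, 332, 279 and 283 CPM at ZT18, against 578, 531, 482 and 584 CPM at ZT6 (log2 difference -0.88, SE 0.09, edgeR adjusted p = 0.00241), and it overlaps a predicted gene on its own strand and another on the opposite one. Abcb11, the pump that exports bile salts into the canaliculus, fell, with 381, 411, 346 and 389 CPM at ZT18, against 683, 693, 633 and 672 CPM at ZT6 (log2 difference -0.81, SE 0.08, edgeR adjusted p = 0.00192), and Hsd3b7 and Abcb11 held with any 1 library left out. Slco1b2, an uptake carrier (-0.48, SE 0.08), and Abcg8, part of the sterol exporter (-0.65, SE 0.12), fell as well. In all, 1 of the 22 tested genes rose and 4 fell (22.7% called, against 3.68% of all tested transcripts). With 1 library left out 0 to 2 rose and 2 to 4 fell. Cyp8b1, which makes cholic acid (0.60, SE 0.16, edgeR adjusted p = 0.0804), and Nr0b2, the repressor SHP (-0.67, SE 0.35), did not pass.

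**Figure D4:**
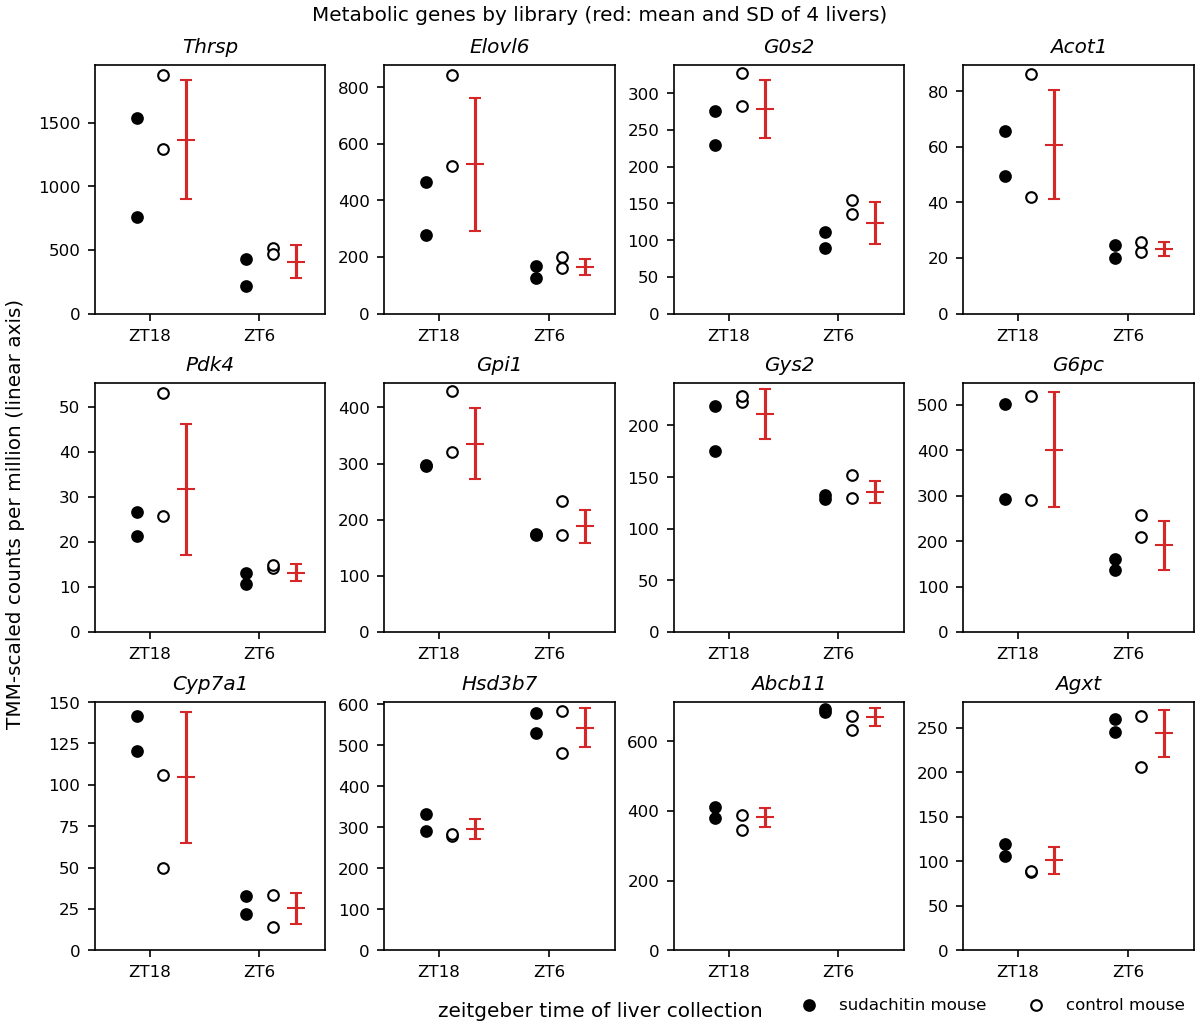
Levels of 12 metabolic genes in each library, in TMM-scaled CPM on a linear axis that starts at 0, with ZT18 left and ZT6 right in each panel. Filled points are sudachitin mice, open points are control mice, and red marks are the mean and SD of 4 livers. Lipid and sugar genes and Cyp7a1 are higher at ZT18, Hsd3b7, Abcb11 and Agxt are lower, and the times do not overlap in any panel.

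In amino acid metabolism 3 of 30 tested genes fell and 1 rose (13.3% called, against 3.68% of all tested transcripts). With 1 library left out 5 fell and 2 rose without control ZT18 mouse 1, while 2 fell and 0 or 1 rose in the other 7 fits. Agxt, which detoxifies glyoxylate to glycine, had 119.8, 106, 87.99 and 89.6 CPM in the 4 ZT18 livers, against 260.2, 245, 206 and 264 CPM in the 4 ZT6 livers (log2 difference -1.28, SE 0.10, edgeR adjusted p = 0.000837). Cbs, the enzyme that draws homocysteine toward cysteine, had 333, 269, 233 and 310.2 CPM at ZT18, against 575, 546, 515 and 602 CPM at ZT6 (log2 difference -0.97, SE 0.12, edgeR adjusted p = 0.00483). Both held with any 1 library left out, with the night livers well below the day livers. Hal, the first enzyme of histidine breakdown, fell (-0.52, SE 0.11). Asl, the urea cycle enzyme that splits argininosuccinate, rose, with 773, 813, 564 and 851 CPM at ZT18, against 508, 337, 403 and 419 CPM at ZT6 (log2 difference 0.85, SE 0.16, edgeR adjusted p = 0.0237), while Cps1 (-0.19, SE 0.17) and Arg1 (0.07, SE 0.12) of the same cycle did not pass. Asl passed in 2 and Hal in 1 of the 8 leave-one-out fits. In the methionine and folate cycles 2 of 16 tested genes rose (12.5% called), among them Mat2a, which makes S-adenosylmethionine (0.39, SE 0.09) and passed in 1 of the 8 fits.

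Nuclear receptors outside the clock were divided, with 3 of 20 higher and 3 lower (30% called, against 3.68% of all tested transcripts). The 3 that rose were Esr1, estrogen receptor alpha (log2 difference 0.78, SE 0.13, edgeR adjusted p = 0.0149), Nr1i3, the xenobiotic sensor CAR (log2 difference 0.58, SE 0.11, edgeR adjusted p = 0.0227), and Ppard (log2 difference 1.05, SE 0.21, edgeR adjusted p = 0.0298). Nr1i3 shares 936 bases with Tomm40l on the opposite strand. The 3 that fell were Thra, thyroid hormone receptor alpha (log2 difference -0.67, SE 0.12, edgeR adjusted p = 0.0214), Nr5a2, which encodes LRH-1 (log2 difference -0.48, SE 0.09, edgeR adjusted p = 0.0216), and Rara (log2 difference -0.47, SE 0.09, edgeR adjusted p = 0.0296). None of the 6 passed in more than 4 of the leave-one-out fits. Cyp2b10, a target of CAR in mouse liver, was the called member of 33 CYP2 and CYP3 genes, at a low level of 0.889, 0.705, 2.68 and 0.422 CPM at ZT18, against 0.123, 0.0682, 0.144 and 0.0654 CPM at ZT6 (log2 difference 3.44, SE 0.70, edgeR adjusted p = 0.0336), and it passed in 2 of the 8 fits. The share called in that list was 3.03%, against 3.68% of all tested transcripts. Of 15 glucocorticoid-responsive genes, Dusp1, a phosphatase of MAP kinases, rose, with 31.8, 37.9, 31.3 and 48.3 CPM at ZT18, against 13.8, 16.8, 8.06 and 17.3 CPM at ZT6 (log2 difference 1.41, SE 0.23, edgeR adjusted p = 0.0153). Fkbp5, a co-chaperone of the glucocorticoid receptor, rose too (log2 difference 0.82, SE 0.15, edgeR adjusted p = 0.0241), and Klf9, given above, fell. Dusp1 passed in 7 and Fkbp5 in 4 of the 8 fits. The share called among the glucocorticoid-responsive genes was 20%.

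Few members of the large complexes passed. Over all tested transcripts 3.68% passed. Of the lists given next, the share was 3.23% for the proteasome, 3.23% for complement and coagulation and 5.88% for phase 2 genes. It was 9.52% for interferon genes, 10.5% for apolipoprotein and lipoprotein genes and 11.4% for ribosome assembly. None of 49 tested nuclear-encoded subunits of oxidative phosphorylation passed, but 47 had a log2 difference above 0 (median 0.11), and of 48 cytosolic ribosomal proteins none passed and 46 were below 0 (median -0.07). The sign of both medians held in all 8 leave-one-out fits and under 2 other scalings. Among all tested transcripts 52.7% were above 0. Of 31 proteasome subunits, Psmd2 passed (log2 difference -0.39, SE 0.08, edgeR adjusted p = 0.0383), and 30 were below 0 (median -0.20). In 14 all ZT18 livers were below the ZT6 livers, against 7.02% of all tested transcripts. In ribosome assembly 2 of 35 rose, Nolc1 (log2 difference 0.79, SE 0.12, edgeR adjusted p = 0.01) and Rrp12 (0.70, SE 0.16), and 2 fell, Rcl1 (log2 difference -0.77, SE 0.11, edgeR adjusted p = 0.00879) and Dkc1 (-0.40, SE 0.09). Among secreted proteins, plasminogen (Plg) was the called member of 31 complement and coagulation genes (log2 difference -0.42, SE 0.09, edgeR adjusted p = 0.0392), and Apom (-0.54, SE 0.10) and hepatic lipase (Lipc; -0.62, SE 0.13) fell among 19 apolipoprotein and lipoprotein genes. Of 21 interferon genes, Ddx58 (-0.46, SE 0.10) and Irf9 (-0.38, SE 0.08) fell, and with 1 library left out 6 fell and 1 rose without control ZT18 mouse 1, 1 fell without sudachitin ZT18 mouse 2, and none passed in the other 6 fits. Gstm6 and Gstm7, close copies among 34 phase 2 genes, fell by 0.43 and 0.49 on the log2 scale. Nolc1 and Rcl1 held with any 1 library left out and Gstm7 in 7 of the 8 fits, while Psmd2, Rrp12, Dkc1, Plg, Apom, Lipc, Ddx58, Irf9 and Gstm6 each passed in 1 to 3. No member passed among 18 male-biased, 7 female-biased, 13 growth hormone axis, 22 acute phase, 23 iron and haem or 27 cell cycle genes. The median of the female-biased genes was 0.87 with all libraries and -0.34 without control ZT18 mouse 1.

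**Figure D5:**
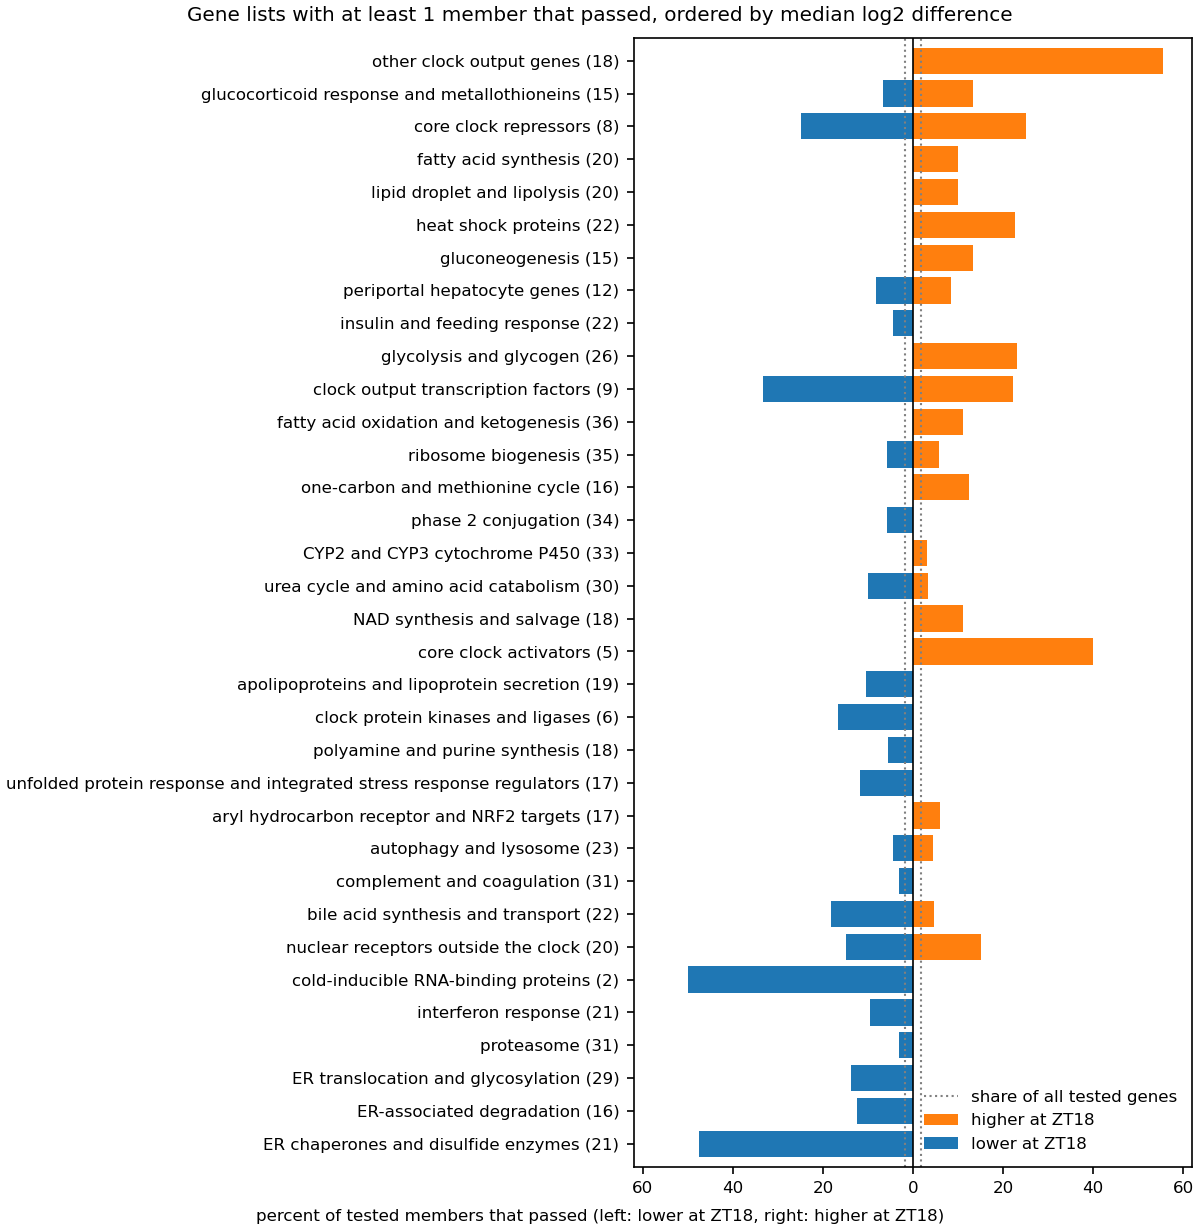
Share of the tested members (number in brackets) of each of the 34 gene lists with at least 1 call, in percent, with bars to the right for higher and to the left for lower at ZT18. Lists are ordered by their median log2 difference, and dotted lines mark the share of all tested transcripts, 1.86% higher and 1.82% lower. Other clock output genes reach furthest to the right; ER chaperones and the cold-inducible pair, of which 1 of 2 passed, reach furthest to the left.

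Of the 10 genes whose call was firmest over the leave-one-out fits, 7 were lower at night, among them Nr1d1, Nr1d2 and Agxt, and 3 were higher, Cry1 and Wee1 among them. Ndrg1, a stress-responsive protein, had 5.04, 4.404, 5.08 and 4.43 CPM at ZT18, against 13.9, 15.3, 11.4 and 10.8 CPM at ZT6 (log2 difference -1.43, SE 0.13, edgeR adjusted p = 0.00168). Klhdc7a, a kelch-domain protein, had 22.5, 24.8, 34.2 and 30.5 CPM at ZT18, against 57.7, 52.1, 60.2 and 60.3 CPM at ZT6 (log2 difference -1.05, SE 0.10, edgeR adjusted p = 0.00168). Hectd2, a ubiquitin ligase, had 26.3, 27.7, 43.1 and 34.8 CPM in the 4 ZT18 livers, against 79.7, 79.1, 101 and 96.9 CPM in the 4 ZT6 livers (log2 difference -1.45, SE 0.09, edgeR adjusted p = 0.000296), and its antisense transcript Hectd2os followed it (-1.5, SE 0.12). The Hectd2 pair shares 1718 bases on opposite strands and cannot be told apart by these counts. Sgk2, a kinase related to SGK1 (-1.44, SE 0.18), Fbxo21, an F-box protein (-1.39, SE 0.17), Tns2, tensin 2 (-1.25, SE 0.18), Mrnip (-1.39, SE 0.13) and Ncald (-1.15, SE 0.12) also fell and held with any 1 library left out, and Rfx4 fell (-1.16, SE 0.24) but passed in 2 of the 8 fits. Among the largest rises, Nat8f5 had 15.8, 29.9, 20.6 and 33.6 CPM at ZT18, against 6.02, 3.89, 5.901 and 5.56 CPM at ZT6 (log2 difference 2.22, SE 0.24, edgeR adjusted p = 0.00265). It shares exon sequence with its neighbour Nat8f6 (2.27, SE 0.31), so the split between that pair is uncertain. Ppp1r1b, a phosphatase inhibitor best known as DARPP-32, had 9.96, 9.92, 14.4 and 9.63 CPM at ZT18, against 3.69, 2.52, 3.81 and 3.33 CPM at ZT6 (log2 difference 1.71, SE 0.17, edgeR adjusted p = 0.00206). Slc15a2, a peptide carrier (2.98, SE 0.64), Osbpl3, an oxysterol-binding protein relative (1.91, SE 0.43), and Fmo2, a flavin-containing monooxygenase (1.76, SE 0.27), were further large rises, and Slc15a2 and Osbpl3 passed in 2 or 3 of the 8 fits.

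The treatments were compared only to see whether the programme is shared. No transcript had a difference between ZT18 and ZT6 that itself differed between sudachitin and control livers in edgeR's interaction test, with a lowest adjusted p of 0.623. At an unadjusted p under 0.05 there were 548 of the 14506 tested transcripts and 38 of the 534, a larger share among the 534. DESeq2 called 14 interactions. All 534 had the same sign in both treatments, as the choice of transcripts on the pooled comparison favours, against 65.9% of all tested transcripts. Among the 270 higher at ZT18 the median log2 difference was 0.78 in sudachitin and 0.75 in control livers, and among the 264 lower it was -0.55 in sudachitin and -0.61 in control livers. The p-values weigh a difference against the spread between these livers, with 4 mice at each time and 2 in each treatment and time.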

How the data were processed

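Liver poly(A) RNA was sequenced from 8 mice, 2 in each combination of time and treatment, in unstranded libraries read as 150-base pairs, per the labels' protocols. Trimmomatic 0.39, STAR 2.7.2a and HOMER are named in the submitters' processing notes, without their roles. The authors deposited a table of estimated counts in exons for 55421 transcripts of GRCm38, unnormalized and stepping by 0.5 as the file headers and values show, and a second deposited table with FPKM values of the same libraries. The sources used here do not say how strand and reads that map to several places were handled, so overlapping transcripts cannot be told apart. Of the tested transcripts, 3747 have an exon overlapping one on the opposite strand and 1200 one on the same strand. The text names such overlaps for some genes only.

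Counts were rounded, with 0.5 rounded up, and tested in R 4.3.3 with edgeR 4.0.16: filter on low counts by the 4 groups (14506 transcripts left), TMM factors (0.966 to 1.02), an additive model of treatment and time, and the quasi-likelihood F test. Log2 differences are ZT18 minus ZT6, positive when higher at ZT18. P-values were adjusted by Benjamini and Hochberg over every tested transcript, with a threshold of 0.05, and the SE is the log2 difference over the square root of F. An interaction model tested whether the difference depends on treatment. Each library in turn was dropped with the same tested transcripts. Other alternatives were DESeq2 1.42.0, limma 3.58.1 on log2(FPKM + 0.1) or log2(FPKM + 1), other scalings and filters, 4 group means, no treatment term, the replicate number as a block and a test against a 1.2-fold difference. Self-tests on simulated counts over 14506 transcripts recovered 77 of 100 genes changed 2-fold and 28 of 100 changed 1.5-fold. The changed genes were drawn among those with a mean above 1 CPM, so recovery at lower levels was not measured. Beside these 77 and 28 true calls there were 11 false ones, and no outlying liver was simulated.

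Groups come from the sample titles. The comparison, its 55 gene lists (1066 symbols, 1018 of them tested) and their members were chosen with earlier results of these data known. Named genes are the 15 largest rises and 15 largest falls among calls with at least 5 CPM at the higher time and no overlap of the times, all tested clock genes and clock output factors, up to 4 called members of every other list by p, and the 10 genes with the smallest worst adjusted p over the leave-one-out fits, with predicted genes left out. List members outside this rule, and uncalled ones, were named after their values were seen. Some genes that the rule names are not reported here, though the counts of their lists include them. Promoter sequences are from RefSeq (GRCm38.p6) and matched 9956 of 14491 tested symbols with start sites within 1000 bases of the counted transcript.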

Additional observations from a re-analysis of the deposited data

Results flagged for a closer look

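In 228 sets of 4 livers, 2 for each of 114 named genes, 15 had 1 liver separated from the other 3 by more than Dixon's critical value for 4 samples, where chance flags about 5% of sets, or 11.4 here. The ratio given with each is the gap to the nearest liver over the whole range.

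At ZT18, control mouse 1 was the highest liver for Osbpl3 (29.9 CPM, against 6.81 to 7.59 CPM in the others, ratio 0.966), Ppp1r1b (14.4 against 9.63 to 9.96 CPM, 0.931) and Pdk4 (53.2 against 21.3 to 26.6 CPM, 0.835), and the lowest for Lipc (76.7 against 115 to 120.2 CPM, 0.884). Sudachitin mouse 2 at ZT18 was the highest for Nr1d1 (7.52 against 4.86 to 5.13 CPM, 0.899), Clock (57.1 against 44.4 to 46.0 CPM, 0.872), Stt3a (88.0 against 72.1 to 74.4 CPM, 0.857) and Uggt1 (72.6 against 56.5 to 57.2 CPM, 0.959).

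At ZT6, control mouse 1 was the highest for Gpi1 (233 against 172 to 174 CPM, 0.975) and Bhlhe40 (97.9 against 61.5 to 66.3 CPM, 0.868), and the lowest for Fbxl21 (4.46 against 6.27 to 6.54 CPM, 0.874). Control mouse 2 was the lowest for Klf10 (5.29 against 6.55 to 6.76 CPM, 0.854). Sudachitin mouse 1 was the highest for Slc15a2 (1.97 against 0.144 to 0.392 CPM, 0.864). Sudachitin mouse 2 was the lowest for Azin1 (79.4 against 89.6 to 91.5 CPM, 0.842) and Nolc1 (13.2 against 18.3 to 18.5 CPM, 0.964).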

How the results depend on the processing

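The 534 calls became 1629 with no filter on low counts, 942 with DESeq2 and 138 in a test against a 1.2-fold difference. They stayed within 1.5 times under the other planned settings, among them 528 with median-of-ratios factors, 503 with total counts and 413 with 4 group means. Leaving out 1 library gave 168 to 1061 calls. The interaction of treatment and time had 0 calls, 259 with no filter on low counts, 14 with DESeq2, and 0 to 13 when 1 library was left out. Of the 102 named genes that passed, 76 also passed with limma on log2(FPKM + 1), 47 against a 1.2-fold difference and 101 with DESeq2, and no called gene changed direction under any alternative or leave-one-out fit run. Among genes that did not pass, the log2 difference of Clock turned to -0.0321 on log2(FPKM + 0.1) and -0.0229 on log2(FPKM + 1). With 1 library left out Clock ranged from -0.0610 to 0.0613, below 0 without sudachitin ZT18 mouse 2 or ZT6 mouse 1, and Cry2 from -0.119 to 0.0532, above 0 without sudachitin ZT18 mouse 1 or control ZT6 mouse 1. The causes were not tested. With the replicate number as a block, 461 transcripts passed. Same-numbered mice correlated in their deviations with r = -0.20 to 0.28. These values, of both signs, show no consistent pairing but cannot exclude one with 2 mice in each group. Low counts limit genes such as Cyp2b10 and Bhlhe41.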

Other observations

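Several gene families outside the lists had members that were higher at ZT18; they were picked after their values were seen, so their counts are descriptions and no support for a theme. Of 4 tested flavin-containing monooxygenases, drug-oxidising enzymes of the ER, 3 rose. Fmo5 had 1084, 1037, 1360.3 and 1121 CPM at ZT18, against 641, 490.0, 666 and 728 CPM at ZT6 (log2 difference 0.87, SE 0.11, edgeR adjusted p = 0.0052), Fmo1 had 238 ± 49.6 CPM at ZT18 and 134 ± 9.27 CPM at ZT6 (log2 difference 0.82, SE 0.14, edgeR adjusted p = 0.0146), and Fmo2 is given above, while Fmo4 did not pass (0.10, SE 0.26). Of 6 tested Ces1 carboxylesterases, Ces1d alone passed, an enzyme that hydrolyses triglycerides in hepatocytes. It had 1017, 954, 1415 and 929 CPM at ZT18, against 412, 466, 375 and 369 CPM at ZT6 (log2 difference 1.41, SE 0.15, edgeR adjusted p = 0.00265), while its 5 relatives had log2 differences of -0.21 to 0.07. Of 4 long-chain acyl-CoA synthetases, which activate fatty acids, Acsl1 (log2 difference 0.64, SE 0.13, edgeR adjusted p = 0.0319) and Acsl4 (log2 difference 0.57, SE 0.11, edgeR adjusted p = 0.0296) rose. Among 22 peroxisomal membrane genes 3 rose, and Pex11a, which helps peroxisomes divide, had the largest difference, with 177, 101, 238 and 144 CPM at ZT18, against 64.5, 70.7, 75.4 and 65.7 CPM at ZT6 (log2 difference 1.24, SE 0.21, edgeR adjusted p = 0.0164). Fmo5 and Ces1d held with any 1 library left out. Fmo2 passed in 6, Fmo1 in 5, Pex11a in 4, Acsl4 in 3 and Acsl1 in 2 of the 8 leave-one-out fits.

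Both tested subunits that give collagen prolyl 4-hydroxylase its activity rose: P4ha1 had 22.05, 13.04, 14.1 and 19.5 CPM at ZT18, against 7.07, 7.64, 5.11 and 8.37 CPM at ZT6 (log2 difference 1.28, SE 0.21, edgeR adjusted p = 0.0136), and P4ha2 had 9.24, 7.58, 8.48 and 10.05 CPM at ZT18, against 4.79, 4.98, 3.38 and 5.69 CPM at ZT6 (log2 difference 0.90, SE 0.18, edgeR adjusted p = 0.0285). Lonrf1, a relative of Lonrf3, rose as well (log2 difference 0.97, SE 0.14, edgeR adjusted p = 0.00928). In vitamin B6 metabolism, Pdxk, the kinase that makes the active form, had 78.5, 90.96, 93.9 and 75.95 CPM at ZT18, against 50.8, 46.4, 45.3 and 49.5 CPM at ZT6 (log2 difference 0.82, SE 0.10, edgeR adjusted p = 0.0038), and Pdxp, the phosphatase that reverses that step, rose at a far lower level (1.29 ± 0.659 CPM at ZT18 and 0.183 ± 0.101 CPM at ZT6; log2 difference 2.73, SE 0.43, edgeR adjusted p = 0.0114). Among plasma proteins outside the lists, Klkb1, the precursor of plasma kallikrein (log2 difference -0.62, SE 0.10, edgeR adjusted p = 0.0136), Serpinf2, the inhibitor of plasmin (log2 difference -0.64, SE 0.10, edgeR adjusted p = 0.013), and Mug2, a protease inhibitor (log2 difference -0.54, SE 0.08, edgeR adjusted p = 0.00925), fell. Lonrf1, Pdxk, Pdxp and Mug2 held with any 1 library left out. P4ha1 passed in 7, Klkb1 and Serpinf2 in 6 and P4ha2 in 3 of the 8 leave-one-out fits.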
